A study of Mus musculus with 7 samples.

Results

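AP-1 is a transcription factor made of pairs of basic leucine zipper proteins, in which a JUN protein pairs with another JUN, with a FOS protein or with a partner of the ATF family, and the pair binds short DNA elements in promoters and enhancers. Most of its genes are immediate early genes: their mRNAs appear shortly after a hormone, growth factor or stress signal, without a need for new protein, and are soon degraded. In the ovary such genes are known for their transient induction in granulosa cells by the gonadotropin surge before ovulation.

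The 10 genes described here are the JUN family genes Jund, Jun and Junb, the FOS family genes Fos, Fosb and Fosl2, the AP-1 partner Atf3, and the immediate early genes Egr1, Ier2 and Zfp36. They were found as the identifiers that GENCODE M21 gives these names, 10 of 55487 gene rows, and all 10 were among the 18779 genes with enough counts to be tested. They were selected on the measured difference between the groups in these same libraries, so their levels and fold changes are given as a description, without a test.

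The RNA was whole ovary from C57BL/6J mice at postnatal day 60, in diestrus. The 3 CNTR libraries came from the first-generation offspring of F0 dams that had received PBS, and the 4 PAMH F3 libraries came from the third generation bred from F0 dams that had received human recombinant AMH, at a daily dose of 0.12 mg/kg, in late gestation. No later generation was injected, and the route is subcutaneous in the labels but intraperitoneal in the methods. Since all CNTR mice were F1 and all PAMH mice F3, the group and the generation cannot be told apart. In RNA from a whole organ, fewer cells of a type and less RNA per cell cannot be told apart either.

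Each library held between 32158174 and 35485021 gene counts. Levels are given as CPM, the counts scaled to a common library depth, with TMM factors over all gene rows. Granulosa, theca and oocyte markers were detected in all 7 libraries, apart from the theca marker Insl3, which was at 0 in at least 1 library and averaged 0.0589 CPM. Summed markers overlapped between the groups for every cell type listed; smooth muscle markers summed to 441 to 758 CPM in CNTR and 317 to 648 CPM in PAMH F3, leukocyte markers to 336 to 363 and 224 to 449 CPM, and adipocyte markers to 121 to 345 and 52.0 to 249 CPM. One library stood apart in base composition. In CNTR 2 the level of a gene relative to the other libraries increased with the GC content of its transcript, with a slope of 0.304 on the log2 scale per 10 percentage points of GC, against slopes from -0.12 to 0.05 in the other 6 libraries. CNTR 2 also had the highest summed smooth muscle markers of the 7 libraries, with 2 of those 4 genes at their highest in it, the lowest summed erythroid markers at 15.6 CPM and the lowest mitochondrial share at 2.14% of gene counts. Whether these have a part in the levels of Jund, Junb, Jun and Ier2 in CNTR 2 was not tested.

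The genes of the AP-1 proteins share one sequence element in particular, the coding stretch of the leucine zipper, the part of the protein that holds the pair together. It is shown because these related sequences differ in GC content, which over the whole transcript is the property that sets CNTR 2 apart. The order of the genes by GC content is not the same in the stretch and in the transcript. Each line gives the coding strand from the GENCODE M21 transcript (mm10), and capitals mark the codons of the leucines that open each heptad.

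Jund: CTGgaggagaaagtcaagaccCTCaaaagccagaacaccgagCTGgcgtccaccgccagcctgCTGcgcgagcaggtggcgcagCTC
Junb: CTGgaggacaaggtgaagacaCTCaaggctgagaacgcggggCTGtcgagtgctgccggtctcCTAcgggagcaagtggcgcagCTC
Jun: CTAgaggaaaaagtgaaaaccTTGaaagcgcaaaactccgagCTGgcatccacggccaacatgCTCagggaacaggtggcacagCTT
Fosl2: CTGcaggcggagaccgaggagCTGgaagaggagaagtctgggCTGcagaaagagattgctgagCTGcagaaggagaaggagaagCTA
Fosb: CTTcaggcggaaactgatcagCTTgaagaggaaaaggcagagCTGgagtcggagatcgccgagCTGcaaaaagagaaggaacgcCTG
Atf3: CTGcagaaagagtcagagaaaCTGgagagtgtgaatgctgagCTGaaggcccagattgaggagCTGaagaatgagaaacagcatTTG
Fos: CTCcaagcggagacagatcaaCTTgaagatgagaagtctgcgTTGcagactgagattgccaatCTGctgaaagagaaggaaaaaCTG

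The 87 bases lie at chr8:70699925-70700011 on the plus strand for Jund, at chr8:84977467-84977553 on the minus strand for Junb and at chr4:95050339-95050425 on the minus strand for Jun, each inside a coding sequence held in a single exon. In Fos (chr12:85475691-85475894, plus strand), Fosb (chr7:19305225-19306567, minus strand), Fosl2 (chr5:32150520-32152748, plus strand) and Atf3 (chr1:191171602-191172383, minus strand) the stretch runs across the junction of exons 3 and 4 of the transcript. GC made up 64.4% of it in Jund and 63.2% in Junb but 51.7% in Jun, 56.3% in Fosl2, 54.0% in Fosb, 47.1% in Atf3 and 46.0% in Fos. The third base of the codon, which is largely free of the amino acid, was G or C in 93.1% of the codons in Jund and in 51.7% of those in Fos. Within the JUN family the stretches were identical at 63.2% to 75.9% of bases, within the FOS family at 73.6% to 77.0%, and between JUN and FOS genes at 40.2% to 51.7%. The longest run of bases shared exactly by any pair of these coding sequences was 20, between Jund and Jun, below the 50 bases of a read, so no read that lies wholly in coding sequence could match 2 of these genes exactly. Over the whole longest transcript, GC content was 67.1% for Jund, 62.6% for Junb, 60.9% for Ier2, 57.3% for Egr1, 56.0% for Fosb, 55.5% for Jun, 54.1% for Zfp36, 53.1% for Fosl2, 52.2% for Atf3 and 51.9% for Fos. The median over the tested genes was 49.3%, and 0.101% of them had more GC than Jund.

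Jund and Junb varied more between the CNTR libraries than the other genes did, relative to their means. Jund (chr8:70698949-70700616), which encodes a JUN protein known to be present in many resting cells, was measured at 7.65, 34.6 and 8.20 CPM in CNTR 1, 2 and 3. In the 4 PAMH F3 libraries it was measured at 4.48, 4.43, 8.54 and 4.48 CPM. CNTR 2 stood far above every other library, and PAMH F3 3 lay above both CNTR 1 and CNTR 3, so the groups overlapped. CNTR averaged 16.8 ± 15.4 CPM (SD, n = 3), as compared with 5.48 ± 2.04 CPM (SD, n = 4) for PAMH F3. The ratio of these means, PAMH F3 to CNTR, was 0.326 with all libraries and 0.691 without CNTR 2.

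Junb (chr8:84974484-84978718), whose protein can restrain JUN activity, followed the same order in CNTR at a lower level. It was measured at 2.95, 15.8 and 4.21 CPM in CNTR 1, 2 and 3. In PAMH F3 it was measured at 2.58, 2.14, 2.71 and 1.32 CPM. All 4 PAMH F3 values lay below the lowest CNTR value, by a narrow margin for PAMH F3 3. That margin rests on few reads, with 98 in CNTR 1 and 97 in PAMH F3 3 before scaling, and PAMH F3 4 had 42. The ratio of means was 0.286 with all libraries and 0.610 without CNTR 2.

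Jun (chr4:95049034-95052222) encodes c-JUN, the founding AP-1 subunit. It was measured at 42.0, 99.4 and 53.2 CPM in CNTR and at 48.2, 43.1, 54.5 and 33.7 CPM in PAMH F3. Without CNTR 2, the remaining CNTR values lay inside the range of PAMH F3, and the ratio of means went from 0.692 to 0.943.

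The FOS genes behaved differently from the JUN genes and from each other. Fos (chr12:85473890-85477273), the classical immediate early gene, was measured at 10.0, 17.97 and 19.7 CPM in CNTR and at 16.9, 15.1, 16.4 and 17.1 CPM in PAMH F3. Its widest spread was within CNTR, where CNTR 1 was the lowest library of the 7, and the means of 15.9 ± 5.17 CPM (SD, n = 3) and 16.4 ± 0.895 CPM (SD, n = 4) differed by less than that spread.

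Fosb (chr7:19302696-19310051), known for products that accumulate with repeated stimulation, differed between the groups by about the same ratio with and without CNTR 2. Its level was 3.47, 3.12 and 2.44 CPM in CNTR as compared with 1.76, 1.08, 0.948 and 1.82 CPM in PAMH F3. No library of the latter reached the lowest CNTR value, and the ratio of means was 0.466 with CNTR 2 and 0.474 without it. These levels rest on few reads, from 79 to 115 per CNTR library and from 34 to 62 per PAMH F3 library.

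Fosl2 (chr5:32135801-32157842), which encodes FRA2, had the highest level of the 10 genes. It was measured at 460.4, 514 and 525 CPM in CNTR and at 493, 520.0, 359.6 and 645 CPM in PAMH F3. The ratio of means was 1.01, and the lowest and the highest library were both PAMH F3. Atf3 (chr1:191170296-191218039), a stress-induced gene whose protein pairs with JUN, ranged from 7.14 to 9.33 CPM in CNTR and from 5.42 to 8.87 CPM in PAMH F3, with a ratio of means of 0.877, or 0.936 without CNTR 2.

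Among the other immediate early genes, Egr1 (chr18:34859823-34864984), a zinc finger transcription factor needed in the pituitary for normal Lhb expression, ranged from 56.5 to 86.3 CPM in CNTR and from 41.8 to 72.1 CPM in PAMH F3. The groups overlapped, and the ratio of means was 0.838 with CNTR 2, the highest library, and 0.957 without it. Ier2 (chr8:84661331-84662852), which encodes a small nuclear protein, was measured at 9.43, 25.6 and 11.7 CPM in CNTR. Its levels in PAMH F3 were 6.63, 7.59, 9.48 and 6.55 CPM, so that only PAMH F3 3 reached past the lowest CNTR library, by a narrow margin. The ratio of means for Ier2 was 0.486 with all libraries and 0.717 without CNTR 2.

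Zfp36 (chr7:28376784-28380253), which encodes the RNA-binding protein tristetraprolin that speeds the decay of AU-rich mRNAs, varied little within each group. It was measured at 33.9, 38.2 and 32.5 CPM in CNTR and at 27.8, 26.6, 25.3 and 25.8 CPM in PAMH F3. Mean levels were 34.9 ± 2.99 CPM for CNTR (SD, n = 3) and 26.4 ± 1.09 CPM for PAMH F3 (SD, n = 4), the groups did not overlap, and the ratio of means was 0.757 with CNTR 2 and 0.795 without it.

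**Figure D1:**
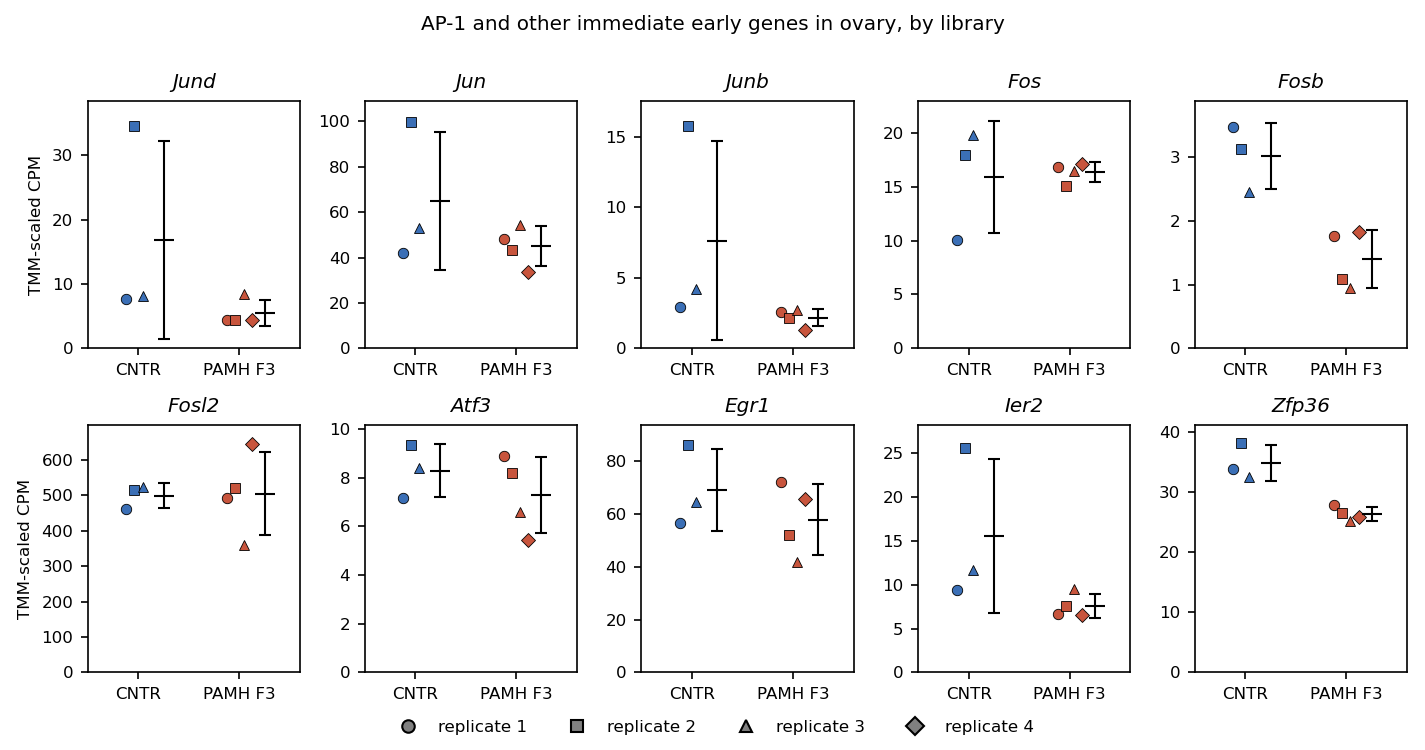
TMM-scaled CPM (vertical axes, each starting at 0) of the 10 genes in the 3 CNTR and 4 PAMH F3 libraries, with the marker shape giving the replicate number and the bar the group mean ± SD. CNTR 2, the blue square, is far above the other libraries for Jund, Jun, Junb and Ier2. Junb, by a narrow margin, Fosb and Zfp36 separate the groups with and without it.

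Every PAMH F3 library lay below every CNTR library for 3 of the 10 genes, Junb, Fosb and Zfp36, and this held for 2.4% of all tested genes. The same 3 genes met this criterion without CNTR 2, where 5.14% of tested genes did. Since the genes were chosen on this contrast, nothing is read from these counts. CNTR 2 was the highest library for 7 of the 10 genes and for 25.1% of tested genes. Fos, Fosb and Fosl2 were the exceptions, with their highest levels in CNTR 3, CNTR 1 and PAMH F3 4. The lowest library was PAMH F3 3 for 4 genes (Fosb, Fosl2, Egr1 and Zfp36), PAMH F3 4 for 4 others (Jun, Junb, Atf3 and Ier2), PAMH F3 2 for Jund and CNTR 1 for Fos.

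Levels of different genes were set side by side per kilobase of exon. Fosl2 was first at 51.9 ± 8.81 CPM per kilobase (SD, n = 7) and stood above Jun in 7 of 7 libraries. Jun followed at 16.8 ± 6.74 and Egr1 at 14.0 ± 3.21 CPM per kilobase, a pair whose order held in 5 libraries and whose difference was smaller than its spread. Zfp36 at 8.65 ± 1.42, Ier2 at 7.23 ± 4.40, Fos at 6.88 ± 1.30, Jund at 6.20 ± 6.51, Atf3 at 3.58 ± 0.642 and Junb at 1.97 ± 2.19 CPM per kilobase followed, and in this run neighbours did not differ beyond their spread. Fosb was last at 0.335 ± 0.154 CPM per kilobase and lay below Junb in 7 of 7 libraries.

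Of the summed level per kilobase of the 7 AP-1 genes, Fosl2 made up 42.7% in CNTR 2 and from 52.5% to 73.6% in the other libraries. Jund and Junb had their highest shares in that same library. Jund took 16.7% in CNTR 2 and from 2.97% to 7.24% elsewhere, and Junb took 5.51% in CNTR 2 and from 0.632% to 2.02% elsewhere. Fosb took less than 1% in each library, with a highest share of 0.743% in CNTR 1.

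Fitted log2 fold changes, PAMH F3 minus CNTR, came from edgeR's quasi-likelihood model with 2 surrogate variables, that is, covariates computed from the count table itself to absorb variation that the groups do not describe. They were -1.22 ± 0.28 (SE) for Fosb, -1.03 ± 0.31 for Junb, -0.91 ± 0.23 for Jund, -0.65 ± 0.12 for Ier2 and -0.38 ± 0.08 for Zfp36. Jun was at -0.22 ± 0.14, Egr1 at -0.19 ± 0.22, Atf3 at -0.13 ± 0.21 and Fosl2 at 0.00 ± 0.16, while Fos was at 0.27 ± 0.10. Of the 10 genes 8 had a log2 fold change below 0, and the median over all tested genes was 0.00. The 10 were chosen on this contrast, and nothing is read from that count. Without surrogate variables Jund was at -1.62 ± 0.52 and Junb at -1.80 ± 0.53, and Fos was at 0.04 ± 0.21. When CNTR 2 was left out the fitted values were -0.58 ± 0.20 for Jund, -0.68 ± 0.28 for Junb, -0.46 ± 0.12 for Ier2 and -0.07 ± 0.14 for Jun. The other genes moved by less than their SE in the fit with all libraries. Those were Fosb at -1.15 ± 0.20, Zfp36 at -0.34 ± 0.08, Atf3 at -0.08 ± 0.23 and Egr1 at -0.06 ± 0.10. Fos at 0.32 ± 0.12 and Fosl2 at 0.05 ± 0.10 were the remaining ones. CNTR 1 mattered as well: without it the fitted values were -1.66 for Jund, -1.92 for Junb, -1.20 for Ier2, -0.69 for Jun and -0.20 for Fos, the last with a changed sign.

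**Figure D2:**
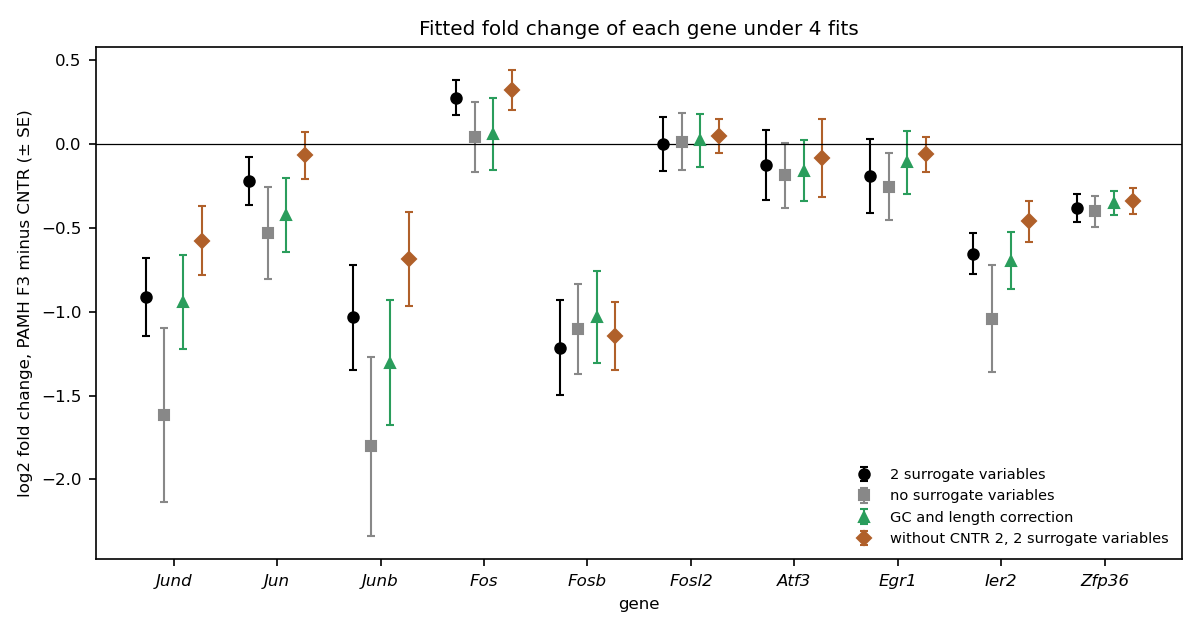
Fitted log2 fold change, PAMH F3 minus CNTR, of the 10 genes (horizontal axis) with SE bars, from edgeR with 2 surrogate variables, with none, with a correction for GC content and length, and without CNTR 2. The 4 fits differ most for Jund, Junb, Jun and Ier2 and lie close together for Fosb, Zfp36, Fosl2, Atf3 and Egr1.

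By edgeR's adjusted p, 0 of the 10 genes and 0% of the tested genes passed 0.05. At an unadjusted p under 0.05 the same fit held 5 of the 10 genes as lower in PAMH F3 (Jund, Junb, Fosb, Ier2 and Zfp36), against 3.89% of tested genes, and 1 as higher (Fos), against 3.75%. DESeq2, given these surrogate variables too, called 2 of the 10 (Jund and Ier2) at an adjusted p of 0.05, against 0.511% of tested genes. The contrast had chosen the genes, and nothing is read from these counts.

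The levels in CNTR 2 moved with GC content. Among the 678 tested genes with a GC content of 60% or more, CNTR 2 was the highest library for 82.3%, and its median difference from the mean of the 6 other libraries was 0.54 on the log2(CPM + 1) scale. Among the 1279 genes under 40% GC, CNTR 2 was the highest for 3.75%, and the median difference was -0.21. Of the 10 genes, Fos and Fosl2 lay inside the middle range (25th to 75th percentile) of their GC class and the others above it. Jund exceeded the other libraries in CNTR 2 by 2.34 on this scale, Junb by 2.24 and Ier2 by 1.503, and within their GC class 2, 5 and 20 genes exceeded them. Jun exceeded the other libraries by 1.12, more than all but 42 of the 3152 genes of 55% to 60% GC. Fosl2 at 0.06 and Fos at 0.19 were the closest to the other libraries. Over the 10 genes, Pearson's r between GC content and the difference in CNTR 2 was 0.94, a description of genes that share 1 library and are not independent.

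**Figure D3:**
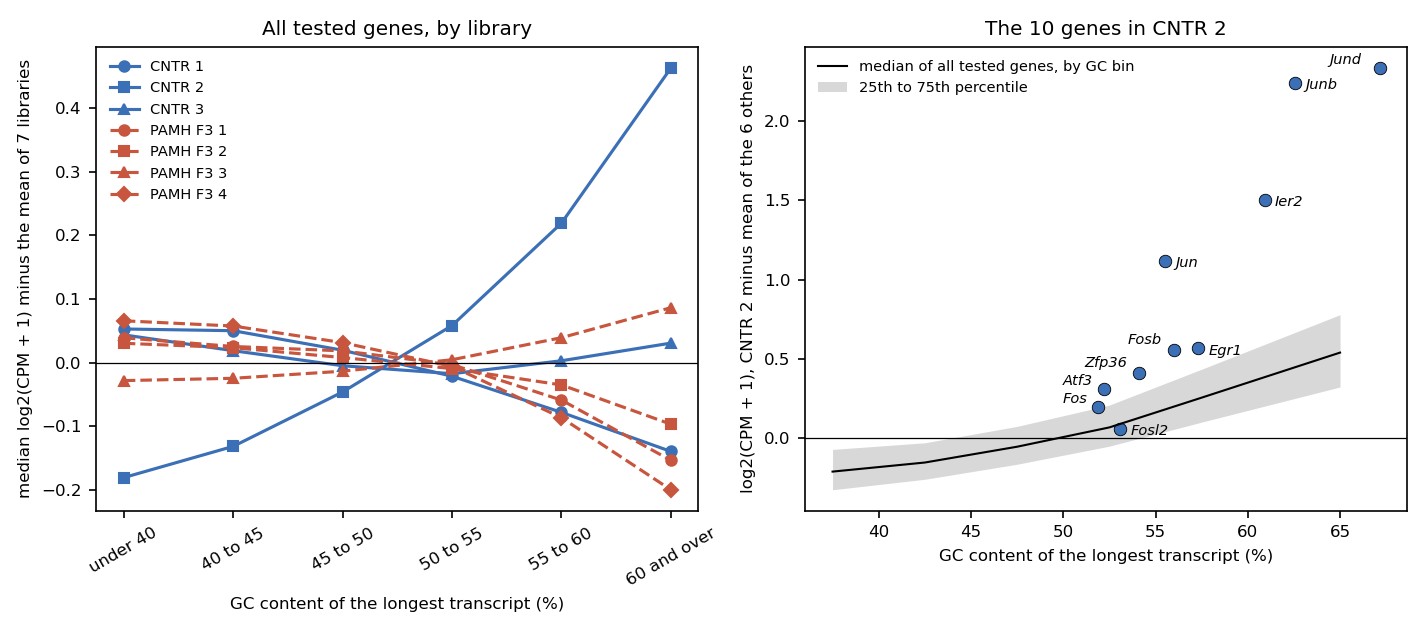
Left, median difference of each library from the mean of 7 on the log2(CPM + 1) scale (vertical axis) for all tested genes in classes of GC content (horizontal axis). Right, the difference of CNTR 2 from the mean of the 6 other libraries for the 10 genes (points) over the median and the 25th to 75th percentile of all tested genes by GC class. CNTR 2 climbs from -0.18 to 0.46 across the classes. Of the 10 genes, Fosl2 lies inside the grey band, Fos at its upper edge and the others above it.

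A smooth trend of level with GC content and exonic length was then taken out of each library. For Jund the fitted trend took up 1.09 of the 2.52 log2 units by which CNTR 2 exceeded the other libraries with 0.5 counts added, and 1.43 remained. For Junb 0.78 of 2.65 was taken up and 1.87 remained, and for Ier2 0.69 of 1.61 was taken up and 0.93 remained. The corrected levels of Jund were 8.48, 18.1 and 8.25 CPM in CNTR and 5.71, 5.07, 7.53 and 6.01 CPM in PAMH F3, which no longer overlapped. After correction every PAMH F3 library lay below every CNTR library for 5 of the 10 genes (Jund, Junb, Fosb, Ier2 and Zfp36) and for 3.05% of tested genes, and nothing is read from the count. The corrected log2 fold changes, fitted without surrogate variables, were -0.94 ± 0.28 for Jund, -1.31 ± 0.37 for Junb, -0.70 ± 0.17 for Ier2, -0.43 ± 0.22 for Jun, -1.03 ± 0.27 for Fosb and -0.35 ± 0.07 for Zfp36. Whether the part of CNTR 2's excess that remained reflects base composition in another form was not tested.

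The libraries also showed which of the 10 genes varied together. Jund, Jun, Junb and Ier2 varied together, less closely without CNTR 2: over the 7 libraries Pearson's r of log2(CPM + 1) was 0.98 between Jund and Ier2, 0.96 between Jund and Junb, 0.96 between Jun and Junb and 0.92 between Jund and Jun. The values share the libraries' depth, scaling and base composition and are a description. Without CNTR 2 the same r were 0.91, 0.73, 0.81 and 0.61 over 6 libraries, so that Jund and Ier2 stayed closest. Without the 2 libraries farthest from the median of the first gene named, r was 0.94 for Jund with Ier2, 0.72 for Jund with Junb, 0.50 for Jun with Junb and 0.63 for Jund with Jun. By ranks over all 7 libraries, Spearman's rho for the same 4 pairs was 0.82, 0.79, 0.71 and 0.71. For Junb with Ier2, r was 0.97 over 7 libraries, 0.85 without CNTR 2 and 0.83 without the 2 libraries farthest from the median of Junb. For Jun with Ier2 it was 0.92, 0.63 without CNTR 2 and 0.42 without the 2 farthest from the median of Jun. Fosb varied with Zfp36 (r = 0.89 with and 0.89 without CNTR 2), and each had groups that did not overlap with or without that library. Centred on the group means, r for Fosb with Zfp36 was 0.41, against 0.98 for Jund with Ier2.

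The r of Fos and Fosl2 with the JUN genes were lower and moved with the libraries left out. For Fos, r was 0.18 with Jund, 0.36 with Jun and 0.25 with Junb, and -0.28 with Fosb. Centred on the group means, r for Fos was 0.38 with Jund, 0.51 with Jun and 0.49 with Junb. Without CNTR 1 and CNTR 3, the lowest and the highest library for Fos, its r with Fosb was 0.83, and without CNTR 2 and PAMH F3 4, the libraries farthest from the median of Jun, its r with Jun was 0.78. For Fosl2, r was -0.17 with Jund and -0.27 with Jun over 7 libraries and -0.64 and -0.73 without CNTR 2. Fosl2 was nearest to Egr1, with r = 0.62 over 7 libraries and 0.74 without CNTR 2. This value went to 0.21 without PAMH F3 3 and PAMH F3 4, the 2 libraries farthest from the median of Fosl2.

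**Figure D4:**
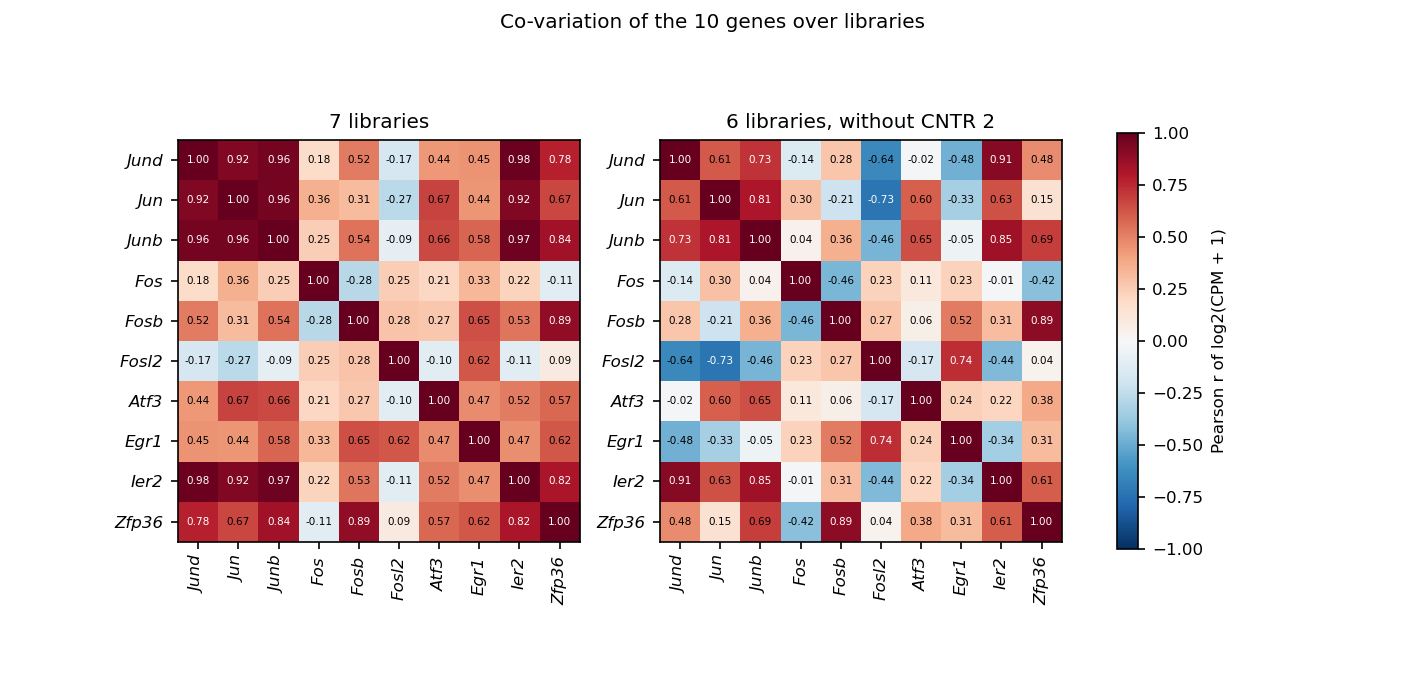
Pearson's r of log2(CPM + 1) for each pair of the 10 genes (rows and columns) over 7 libraries and over the 6 without CNTR 2, with colour from -1 in blue to 1 in red. Jund, Jun, Junb and Ier2 are red with each other in both panels, and the r of Fosl2 with Jund goes from -0.17 to -0.64.

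The tested genes most like Jund over the 7 libraries were Rex1bd, Zfp580, Echdc2, Sipa1l3 and Phb, each with r from 0.990 to 0.993 and from 0.937 to 0.958 without CNTR 2. Their GC content ran from 55.5% to 65.0%, against a median of 49.3% over the tested genes. Each was higher in CNTR 2 than in the CNTR mean, as Rex1bd was with 32.5 against 19.5 CPM. With CNTR 2 included, 711 of the 18778 other tested genes had an r of at least 0.9 with Jund. In that order Ier2 ranked 17th, Junb 162nd and Jun 483rd. Whether base composition has a part in this likeness was not tested. The genes most like Fos were Adgrl1, Gm37078, Telo2, Kmt2d and Fhdc1, with r from 0.974 to 0.996, and 97 genes had an r of at least 0.9. No member of the AP-1 set was among those 97, the nearest being Jun at 0.36.

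The other genes of the pathway were counted over lists chosen with results of these data known. By edgeR's adjusted p, 0 of the 11 tested among 12 other AP-1 and partner bZIP genes, 0 of 47 among 48 other immediate early genes, 0 of 19 upstream kinases and transcription factors and 0 of 12 known AP-1 targets passed. Timp1 was the only gene of these lists called by DESeq2 with surrogate variables. At an unadjusted p under 0.05, 9 of the 47 other immediate early genes were lower in PAMH F3 and 1 was higher, while 3.89% and 3.75% of all tested genes were lower and higher. Without CNTR 2 the count of lower genes was 7 of 47, with 3.62% of all genes, and after correction for GC content and length it was 6 of 47, with 2.85%. The count was 5 without surrogate variables, with 2.84% of all genes, and 1 without both CNTR 2 and surrogate variables, with 1.54%. It was 3 without PAMH F3 2, 14 without CNTR 1 and 15 without PAMH F3 1. The shares of all genes in these fits moved too, to 1.98%, 9.94% and 5.77%. As the list was chosen with results of these data known, nothing is read from its counts. The median log2 fold change of that list was -0.13 and that of all tested genes 0.00. CNTR 2 was the highest library for 22 of the 47, against 25.1% of all tested genes. The median GC content of the list was 52.9%, against 49.3% over all tested genes.

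The 6 with the smallest p, of which none passed the adjusted threshold, were Klf2, Gadd45a, Gadd45b, Errfi1, Egr3 and Gadd45g. Klf2, an endothelial transcription factor gene, was at 12.4 ± 3.07 CPM in CNTR (SD, n = 3) and 8.38 ± 1.34 CPM in PAMH F3 (SD, n = 4), a log2 fold change of -0.43 ± 0.10 (adjusted p = 0.511). Gadd45b was measured at 9.31, 17.4 and 12.0 CPM in CNTR and at 7.65, 8.07, 8.87 and 8.09 CPM in PAMH F3, without overlap (adjusted p = 0.511). Gadd45g was measured at 5.79, 20.7 and 7.64 CPM in CNTR and at 4.90, 5.93, 8.56 and 4.77 CPM in PAMH F3, with CNTR 2 above the others as for Jund (adjusted p = 0.605). Gadd45a, which shares their role in growth arrest, was at -0.26 ± 0.06, Errfi1, an inhibitor of EGF receptor signalling, at -0.41 ± 0.12, and Egr3, a relative of Egr1, at -0.76 ± 0.26, with adjusted p of 0.511, 0.540 and 0.599. CNTR 2 was the highest library for Klf2 and the 3 Gadd45 genes. Without it the log2 fold changes were -0.36 ± 0.12 for Klf2, -0.34 ± 0.12 for Gadd45b, -0.17 ± 0.06 for Gadd45a and -0.15 ± 0.14 for Gadd45g, and the groups still did not overlap for Klf2 and Gadd45b.

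Upstream, where ERK, JNK and p38 kinases act on the serum response and CREB factors that switch on immediate early genes, 1 of 19 genes was lower and 1 was higher at an unadjusted p under 0.05. Of all tested genes 3.89% were lower and 3.75% higher at that p, so nothing is read from this count. Crem, which encodes activators and repressors of the cAMP response, was at -0.20 ± 0.08 and Elk1, a partner of serum response factor, at 0.17 ± 0.07, with adjusted p of 0.642 and 0.640. The median log2 fold change of this list was -0.01. Among the other AP-1 genes, Maf was at -0.38 ± 0.10 (adjusted p = 0.511), with no overlap between 91.2 to 104 CPM in CNTR and 66.9 to 87.4 CPM in PAMH F3, and Atf2, a JUN partner, was at 0.13 ± 0.05 (adjusted p = 0.631). Fosl1, the remaining FOS family gene, was below the count filter, at 0.0309 to 0.142 CPM.

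Among known AP-1 targets, Timp1, an inhibitor of matrix metalloproteinases, was measured at 194, 158 and 298 CPM in CNTR and at 150, 81.0, 46.9 and 123 CPM in PAMH F3. The groups did not overlap, and its log2 fold change was -1.27 ± 0.23, with an adjusted p of 0.365 by edgeR and 0.0365 by DESeq2 with surrogate variables. Mmp3, a stromelysin gene at about 1 CPM or less, was at -1.15 ± 0.41 (adjusted p = 0.599), and the cyclin D gene Ccnd1 was at 0.29 ± 0.09 (adjusted p = 0.567). The median of the 12 targets was -0.16.

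**Figure D5:**
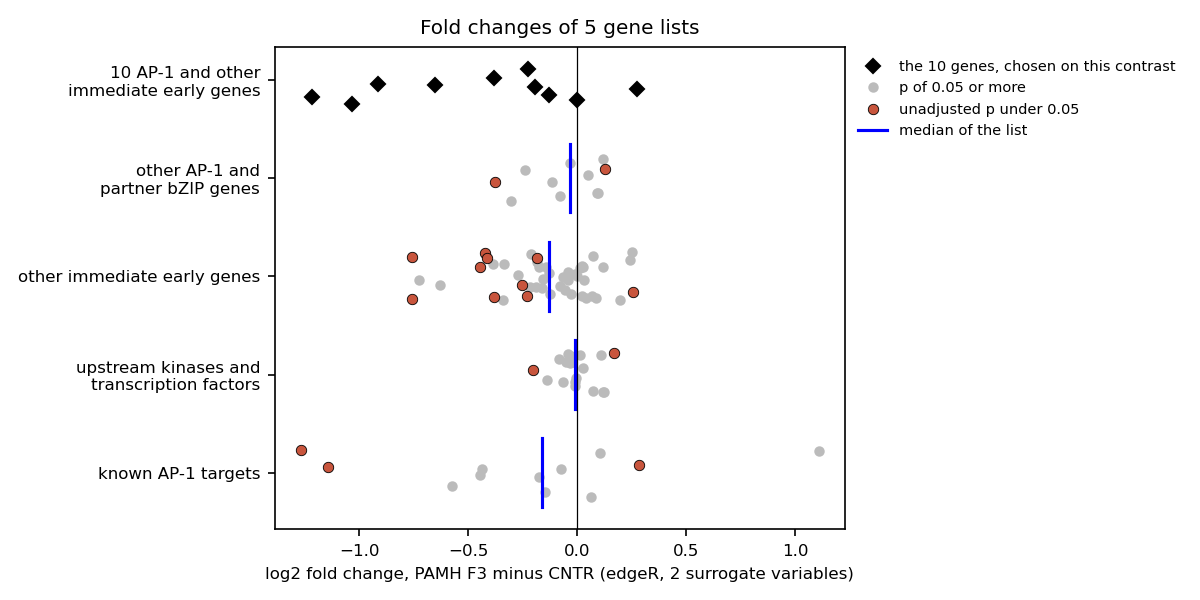
Log2 fold change, PAMH F3 minus CNTR (horizontal axis), of the 10 genes and of each tested gene in 4 related lists (rows), from edgeR with 2 surrogate variables. Red points have an unadjusted p under 0.05, blue bars are the medians of the lists, and no gene passed the adjusted threshold; the lists' medians lie between -0.16 and -0.01.

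Overlapping genes on the opposite strand touch 4 of the 10. Gm11175 covers 52.6% of the exonic bases of Jund, Prdx2 7.52% of those of Junb, Junos 7.28% of those of Jun and Gm44710 3.60% of those of Zfp36. The library kit keeps strand, and this was checked on the counts. Of genes longer than 150 bases nested wholly in exons of genes above 20 CPM, 36 of 36 on the same strand had no count, as union counting sets such reads aside, whereas 89 of 124 on the opposite strand had counts. Gm11175 held between 2 and 10 counts per library, so reads of Jund were kept apart from it.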

How the data were processed

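Ovarian poly(A) RNA was sequenced in 3 CNTR and 4 PAMH F3 stranded libraries as single reads of 50 bases. The authors mapped reads to mm10 with STAR 2.5.3a and counted uniquely aligned reads with HTSeq 0.6.1p1, and the deposited values are these raw counts per gene, without normalization. The 5 summary lines per library were left out; alignments that were not unique made up 37.7% to 40.7% and those outside genes 5.82% to 7.37%. The 10 genes and the related lists were chosen with earlier results of these data known. Of the lists, the genes named are those with an unadjusted p under 0.05, at most 6 per list in order of p, and likeness to Jund and Fos was ranked by Pearson's r, giving 5 genes each.

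Counts of the 18779 genes kept by filterByExpr (minimum count 10) were fitted in edgeR 4.0.16 (R 4.3.3), with TMM factors over all rows, 2 surrogate variables from svaseq (sva 3.50.0), the quasi-likelihood F test and Benjamini-Hochberg adjustment at 0.05, leaving 3 residual degrees of freedom. SE is the log2 fold change divided by the square root of F. DESeq2 1.42.0, other normalization, filters, numbers of surrogate variables, a GC content and length correction (mgcv 1.9.3) and leaving out each library were alternatives. The edgeR fits with and without surrogate variables, and DESeq2 without them, were tested on simulated counts. Those counts had the same dispersion for every gene and no library effects beyond depth, so they do not cover departures like that of CNTR 2. The labels number the replicates without tying them to separate animals, so p-values measure only the spread between these samples, which may be technical. Of the listed symbols, 4 were matched through RefSeq synonyms.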

Additional observations from a re-analysis of the deposited data

Results flagged for a closer look

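Among the 4 PAMH F3 libraries, Jund stood out in PAMH F3 3, with 8.54 CPM, whereas the other 3 ranged from 4.43 to 4.48 CPM. The gap to the next library divided by the whole range was 0.986, above Dixon's 95% critical value for 4 samples, a limit that chance passes in about 1 of 20 groups, and 10 genes were examined. PAMH F3 3 was the only library besides CNTR 2 whose slope of level with GC content was above 0, at 0.05 on the log2 scale per 10 percentage points, and Jund has the highest GC content of the 10 genes. With the GC and length trend taken out, Jund in this library was at 7.53 CPM and the others at 5.07 to 6.01 CPM. The part of base composition in the value that remained was not tested.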

How the results depend on the processing

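With 3 and 4 libraries and 3 residual degrees of freedom, small differences could not be called, and the fold changes of Jund, Junb, Jun and Ier2 depend on CNTR 1 and CNTR 2. The fit on all genes called 0 genes in edgeR, 96 in DESeq2 with surrogate variables, 6 in DESeq2 without them and 8 with no filter on low counts. Leaving out each library in turn gave 0 to 39 genes, with 39 without CNTR 1 and 37 without PAMH F3 1. Of the 10 genes, 0 passed in edgeR, 2 in DESeq2 with surrogate variables and 0 to 1 when a library was left out. Of the related lists, 0 genes passed in edgeR, 1 in DESeq2 with surrogate variables (Timp1) and 0 to 2 when a library was left out. The 9 other immediate early genes lower at an unadjusted p under 0.05 became 5 without surrogate variables, 3 to 15 when a library was left out (14 without CNTR 1, 15 without PAMH F3 1, 3 without PAMH F3 2), and 1 without both CNTR 2 and surrogate variables. Of all tested genes 3.89% were lower at that p in the reported fit and 2.84% without surrogate variables. The share was 9.94% without CNTR 1, 5.77% without PAMH F3 1, 1.98% without PAMH F3 2 and 1.54% without both CNTR 2 and surrogate variables. Earlier results of these data were known when the lists were chosen, so nothing is read from their counts. Chosen after seeing the data were the fit without both, all counts at an unadjusted p and of signs among the 10 genes and the other immediate early genes, and the counts of genes without overlap without CNTR 2 (3, as with it) and after GC and length correction (5). The cause of these changes was not tested.

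The fold changes of Jund, Jun, Junb, Fosb, Ier2 and Zfp36 kept their sign in all 19 alternatives, though Jun was at -0.07 ± 0.14 without CNTR 2. The alternatives reuse the libraries on which the genes were chosen, so the kept signs are a description. Fos was at -0.20 without CNTR 1 and changed sign in 1 alternative, as did Atf3 and Egr1, and Fosl2, near 0, in 7. The replicate numbers did not pair the samples: deviations of same-numbered libraries correlated at 0.09, 0.09 and -0.23. With a replicate block and no surrogate variables, 0 genes passed, 9 members had a log2 fold change below 0 (8 in the reported fit) and 5 reached an unadjusted p under 0.05 (6 in the reported fit). Since the members were chosen on this contrast, nothing is read from their counts. In the same fit 6 of the 47 other immediate early genes were lower at that p, against 1.62% of all tested genes. Nothing is read from that count either, as the list was chosen with results of these data known.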
